A study of Mus musculus with 5 samples.

Results

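The genes described here are the mouse collagens and the enzymes and helper proteins that modify, fold and cross-link collagen chains, measured on 5 Affymetrix Mouse Gene ST arrays. Members were chosen by name: every gene whose symbol has the form of a collagen chain, and 13 listed modifying genes. A gene was taken only where a probe set, a group of short probes along the gene, named it alone. In all, 56 of the 19938 genes so measured were members, of which 44 were collagens and 12 were modifying genes. Loxl2, a lysyl oxidase, was not analysed here.

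The study asked how mouse embryonic stem cells (ESCs) change once they have formed a teratoma and are grown out of it again. Parental ESCs were a B6CBAF1 line, before any injection. ESC-like cells came from teratomas formed under the skin after B6CBAF1 ESCs were given to B6CBAF1 recipients (homologous injection), to B6D2F1 recipients (heterologous injection), or to B6D2F1 recipients together with B6D2F1 fetal fibroblasts (MFF; co-injection). Parental ESCs, homologous injection and heterologous injection had 1 array each, and co-injection had 2, which the labels call batch 1 and batch 2. The study obtained 1 teratoma from heterologous injection, and more than 1 from homologous injection and from co-injection. In the heterologous array, traits of that teratoma therefore cannot be told apart from the condition. All cells, parental ESCs included, had been grown on a layer of growth-inactivated ICR fetal fibroblasts with leukemia inhibitory factor (LIF). The labels give the same LIF concentration for all cells, whereas the study's methods give a higher one for the cells from teratomas. The part of LIF in any difference from parental ESCs was not tested. The labels do not say whether the feeder cells were removed before RNA extraction.

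Collagen chains are made in the endoplasmic reticulum, where prolyl 4-hydroxylases stabilize the triple helix, lysyl hydroxylases prepare residues for cross-links and sugars, and the chaperone Serpinh1 (HSP47) binds the folded helix. After secretion, proteases trim fibrillar procollagen with the help of enhancers such as Pcolce, and lysyl oxidases start the covalent cross-links that make fibrils stiff. Fibroblasts are the classic source of the fibrillar chains, whereas early embryonic cells are better known for the type IV chains of basement membranes.

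Values are log2 expression values, so a difference of 1 is 2-fold, and a gene was counted when a difference was larger than that. These counts are a rule of size and not a test: 3 of the 4 conditions had 1 array, and a limma fit, in which the co-injection pair alone gives the spread, called 0 genes after adjustment. For co-injection the mean and SD of 2 arrays are given. The study counts the pair as separate cell populations and names them by MFF batch 1 and MFF batch 2. Neither the labels nor the methods say that they came from separate teratomas. Whether the spread of the pair covers variation between teratomas is therefore not known. That spread was small for the members: the arrays of the pair differed by a median of 0.0635 (all genes, 0.0671). The largest difference was 0.277, for P4ha2, and 0 members differed more than 2-fold. The number of arrays limits the precision of every value. In bulk samples like these, fewer cells of a type and less RNA per cell cannot be told apart. The level of each gene is that of its own probe set and is set only against the same gene on other arrays.

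The promoters of 4 members are shown because they stand for 4 roles among the genes that moved: a fibrillar chain, a network-forming chain, a hydroxylase and the collagen chaperone. Each is the 250 bases before the start of the gene in RefSeq (GRCm38.p6), written 5′ to 3′ on the gene's own strand. Col1a2 lies at chr6:4505368-4505617 (+), Col8a1 at chr16:57754738-57754987 (-), P4ha3 at chr7:100285270-100285519 (+) and Serpinh1 at chr7:99353240-99353489 (-). Capitals mark matches, on either strand, to the 5 motifs searched: CCAAT (the CCAAT box), GGGCGG (the GC box), TATAAA (the TATA box), ACGTG (the core of the hypoxia response element) and CAGAC (a motif that Smad proteins bind). Matches that overlap run together.
Col1a2: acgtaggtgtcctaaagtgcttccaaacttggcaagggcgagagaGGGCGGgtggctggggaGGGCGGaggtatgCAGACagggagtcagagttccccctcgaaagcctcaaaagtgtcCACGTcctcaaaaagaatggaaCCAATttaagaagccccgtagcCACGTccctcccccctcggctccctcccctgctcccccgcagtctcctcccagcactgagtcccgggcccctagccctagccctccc
Col8a1: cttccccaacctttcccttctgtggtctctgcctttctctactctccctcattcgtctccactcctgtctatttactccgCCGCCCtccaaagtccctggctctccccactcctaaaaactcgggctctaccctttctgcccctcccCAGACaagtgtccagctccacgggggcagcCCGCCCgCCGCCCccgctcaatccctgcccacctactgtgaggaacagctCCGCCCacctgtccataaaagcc
P4ha3: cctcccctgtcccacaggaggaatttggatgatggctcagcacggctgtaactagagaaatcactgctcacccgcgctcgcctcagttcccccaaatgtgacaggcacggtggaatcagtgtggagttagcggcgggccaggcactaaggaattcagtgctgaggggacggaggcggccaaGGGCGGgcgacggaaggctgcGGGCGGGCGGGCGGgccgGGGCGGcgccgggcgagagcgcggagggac
Serpinh1: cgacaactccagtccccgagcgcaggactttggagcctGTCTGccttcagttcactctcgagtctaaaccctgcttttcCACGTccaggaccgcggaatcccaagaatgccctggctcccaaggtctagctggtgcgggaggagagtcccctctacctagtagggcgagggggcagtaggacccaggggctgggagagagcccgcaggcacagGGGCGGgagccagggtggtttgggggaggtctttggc

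A match is a description of letters and not a binding site. The P4ha3 promoter held 5 GC box matches, counting overlapping ones, and none of the other motifs. In Col8a1 the GC box matched 4 times and CAGAC 1 time. The Col1a2 promoter had 2 GC boxes, 1 CCAAT, 2 ACGTG and 1 CAGAC, and the Serpinh1 promoter had 1 GC box, 1 ACGTG and 1 CAGAC. Promoters were at hand for 43 of the 56 members (46 promoters). Of the 12 members past 2-fold in a comparison, 6 had one, namely Col1a2, Col8a1, Col6a3, P4ha1, P4ha3 and Serpinh1. Lox, Loxl1 and Loxl3 were among those without. GGGCGG was found in 63% of the 46 member promoters against 32.7% of all 32851 promoters of the same length. CCAAT was found in 30.4% against 33.8%, TATAAA in 13% against 12.4%, ACGTG in 19.6% against 16.6% and CAGAC in 43.5% against 42.2%. Members that moved and members that did not both held GC boxes: Col5a1, Col8a2 and Col4a6, each within 2-fold on every array, had them too. The windows of Col4a1 and Col4a2, which are transcribed away from each other, overlap by 78 bases.

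The heterologous array stood apart from the other 4 for a small group of matrix genes. In all, 11 members were higher there than in parental ESCs by more than 2-fold: Col1a1 and Col1a2 of the fibrillar class, Col8a1, Col12a1 and Col6a3 among the other collagens, and P4ha3, Plod2, Lox, Loxl1, Loxl3 and Serpinh1 among the modifying genes. That is 11 of 56, or 19.6%, where 3.98% of all genes were higher by the same rule. In the other direction, 0 members were lower, against 1.95% of all genes. The count was 6 of 12 for modifying genes and 5 of 44 for collagens. Accordingly the median difference was 1.01 over the modifying genes and -0.00 over the collagens, beside -0.04 over all genes. Col6a3 (1.08) and Plod2 (1.03) lay just inside the threshold, and P4ha1 (0.99) and Col5a2 (0.94) just outside it.

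**Figure D1:**
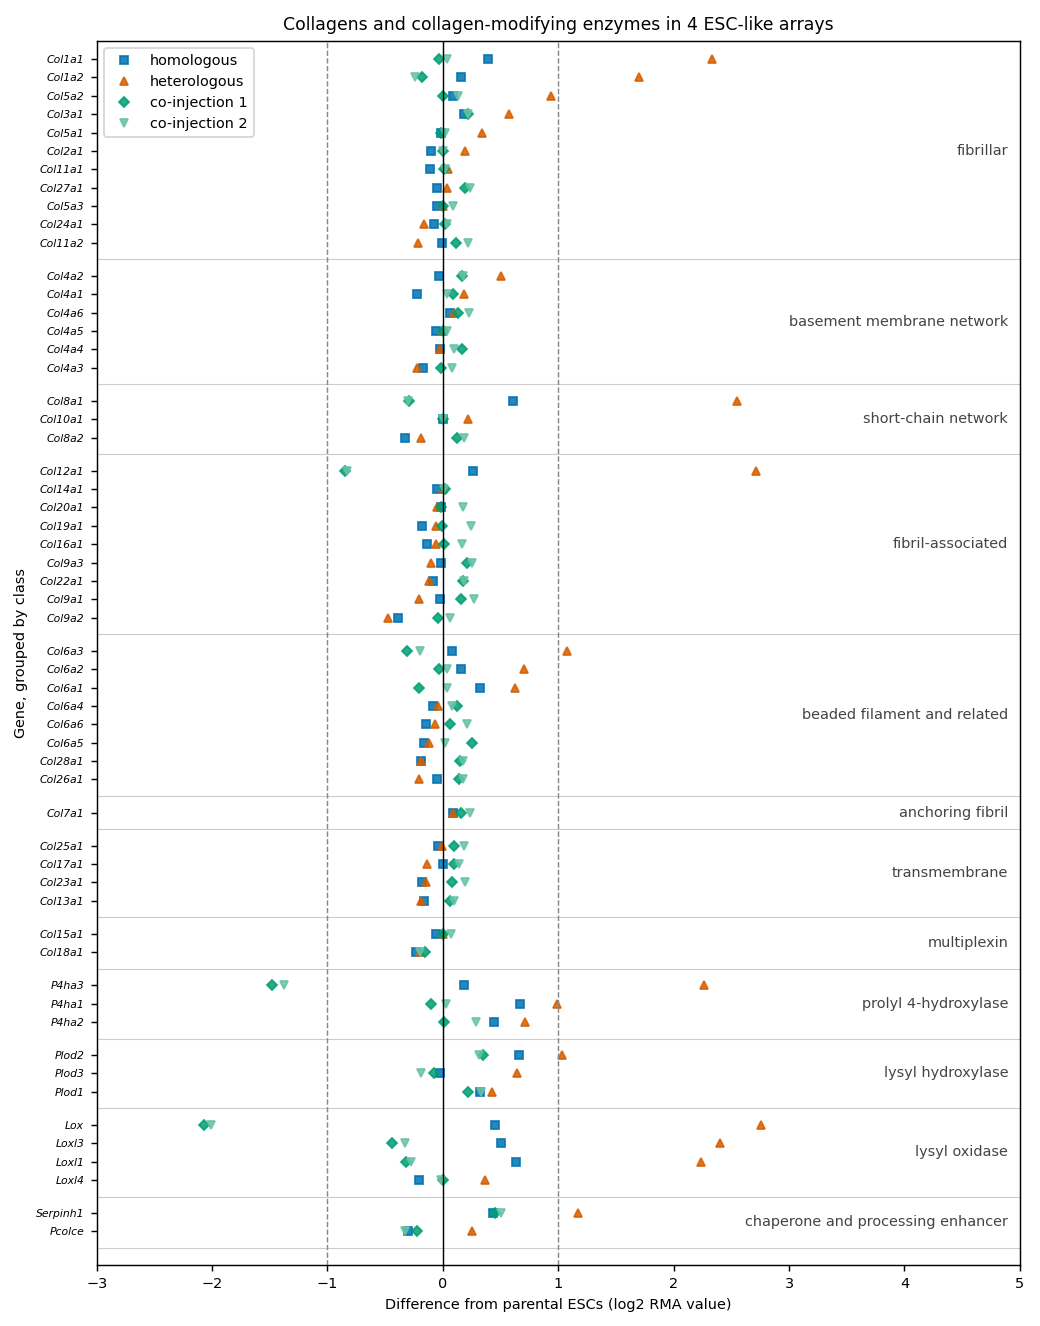
Difference of each of the 56 members from parental ESCs (horizontal axis, log2) on each of the 4 arrays of ESC-like cells (points), with genes grouped by class on the vertical axis and dashed lines at 2-fold. In the heterologous array 11 members lie to the right of 1, and both co-injection points of P4ha3 and Lox lie to the left of -1.

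Type I collagen, the main fibrillar collagen of skin and bone, is built from the products of Col1a1 and Col1a2. Col1a1 measured 8.88 in parental ESCs, 9.27 after homologous injection, 11.21 after heterologous injection, and 8.85 and 8.92 after co-injection. The heterologous value was thus 5.04-fold the parental one, while the co-injection pair (8.88 ± 0.05, SD, n = 2) fell on either side of it. Col1a2 measured 8.38 in parental ESCs, 8.54 and 10.08 after homologous and heterologous injection, and 8.20 and 8.14 after co-injection. Both chains were therefore highest in the heterologous array, and Col1a2 by a smaller factor, 3.24-fold.

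The other fibrillar chains moved less. Col3a1, whose type III homotrimer usually accompanies type I in soft tissue, was 7.58 in parental ESCs, 7.76 after homologous injection, 8.16 after heterologous injection and 7.80 in each co-injection array. Its heterologous difference of 0.57 was under 2-fold. Col5a2 and Col5a1 encode chains of type V, which seeds type I fibrils. The Col5a2 values were 7.22, 7.31, 8.16, 7.22 and 7.35 in the same order of arrays, a heterologous difference of 0.94, whereas Col5a1 ranged from 8.17 to 8.52 (difference 0.33). Col3a1 and Col5a2 are neighbours on chromosome 1, and both were highest in the heterologous array. For the cartilage-type fibrillar chains Col2a1, Col11a1 and Col11a2 the heterologous differences were 0.19, 0.04 and -0.21. Across all 11 fibrillar genes the median heterologous difference was 0.19.

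Col12a1 and Col8a1 showed the largest collagen differences. Col12a1 encodes a collagen that sits on the surface of type I fibrils. It measured 7.66 in parental ESCs, 7.92 after homologous injection, 10.37 after heterologous injection, and 6.81 and 6.83 after co-injection. The heterologous array was 6.55-fold above parental ESCs, while both co-injection arrays were lower than parental ESCs, by 0.84 on average. The other 8 fibril-associated genes gave no call in any comparison; the lowest heterologous difference was that of Col9a2, -0.48.

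Col8a1, a chain of the short-chain network of vessel walls and corneal basement membrane, measured 7.66 in parental ESCs, 8.27 and 10.22 after homologous and heterologous injection, and 7.37 and 7.36 after co-injection. The heterologous value was 5.87-fold the parental value, and the co-injection pair was again the lowest. Its partner chain Col8a2 did not follow, with 7.04, 6.71, 6.85, 7.16 and 7.23 in the same order. The remaining gene of that class, Col10a1 of growth-plate cartilage, ranged from 6.84 to 7.05.

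Type VI collagen forms beaded filaments around cells from 3 chains. The values of Col6a3 were 7.90 in parental ESCs, 7.98 and 8.98 after homologous and heterologous injection, and 7.59 and 7.70 after co-injection. Col6a1 gave 7.75, 8.08, 8.38, 7.55 and 7.79, and Col6a2 gave 7.90, 8.06, 8.60, 7.87 and 7.93, in the same order. All 3 chains were highest in the heterologous array, with differences of 1.08 for Col6a3, 0.70 for Col6a2 and 0.63 for Col6a1, and only that of Col6a3 passed 2-fold. The related genes Col6a4, Col6a5 and Col6a6 had differences of -0.05, -0.12 and -0.07.

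**Figure D2:**
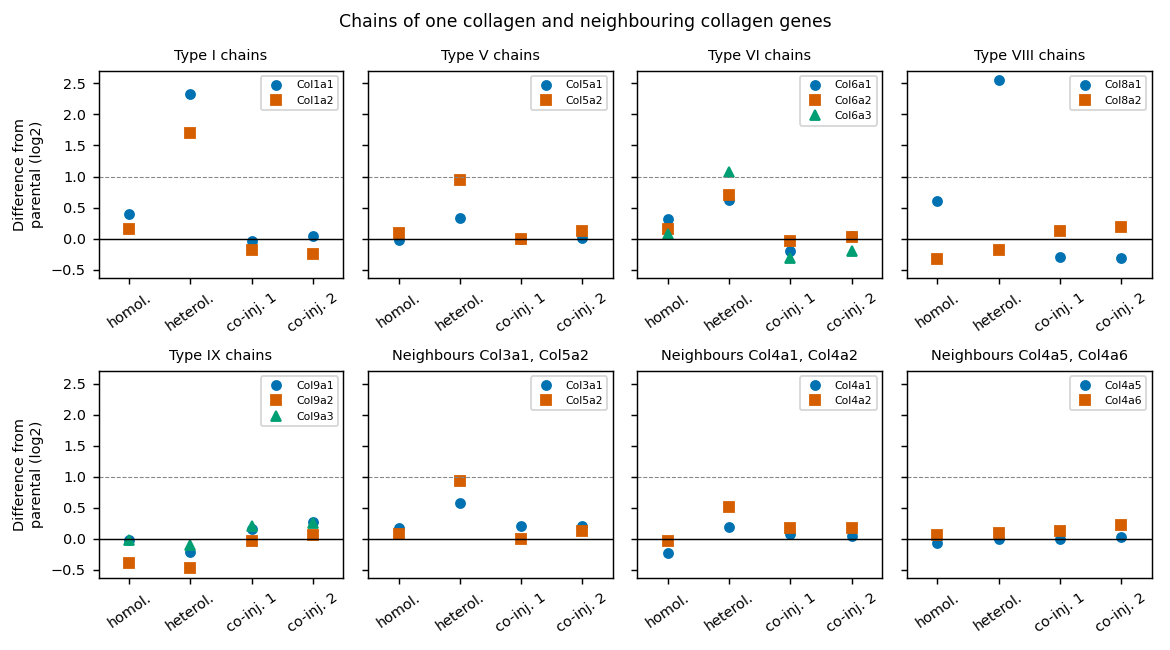
Difference from parental ESCs (vertical axis, log2) on the 4 arrays of ESC-like cells for genes whose chains assemble together or that lie side by side on a chromosome, with a dashed line at 2-fold. Both type I chains exceed 2-fold in the heterologous array, whereas of the type VIII chains Col8a1 does and Col8a2 does not.

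Basement membrane collagen changed little. Col4a1 and Col4a2, the ubiquitous type IV chains, are neighbours on chromosome 8. Col4a1 measured 8.23, 8.01, 8.42, 8.32 and 8.27, and Col4a2 measured 7.91, 7.88, 8.42, 8.08 and 8.09, in the order parental, homologous, heterologous and co-injection. Their heterologous differences were 0.18 and 0.51. Both have mean values above the median of all values, and the 653 chromosome 8 genes that do so had median differences from parental ESCs of 0.26 after homologous injection, 0.23 after co-injection and 0.04 after heterologous injection. Col4a5 and Col4a6 lie on the X chromosome, where 359 genes brighter than the median of all values had median differences of -0.44, -0.47 and -0.50 after homologous, heterologous and co-injection. Neither gene is that bright, and for the 380 dimmer X genes, to which they belong, the medians were -0.05, -0.08 and 0.02. The Col4a5 and Col4a6 differences were within 0.18 of zero in these comparisons. The study reports that abnormal chromosome numbers were more frequent in ESC-like cells than in parental ESCs. The part of chromosome number in the differences on chromosomes 8 and X was not tested. Transmembrane collagens (Col13a1, Col17a1, Col23a1 and Col25a1), the anchoring fibril gene Col7a1 and the multiplexins Col15a1 and Col18a1 gave 0 calls; among these, Col18a1, the source of endostatin, ran from 9.90 to 10.13.

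Many collagens thus scarcely differed between arrays, as was so for most genes. The modifying genes all had mean values above the median of all values, 7.49, whereas some collagens, among them Col10a1, Col8a2, Col28a1 and Col4a6, did not. The part of weak signal in the small collagen differences was not tested. The range over the 5 arrays was under 0.5 for 33 members, namely 32 of the 44 collagens and 1 modifying gene, Plod1. Of all genes, 74% had so small a range, so the collagen share was near that of all genes. For the 44 members with no call in any comparison the range lay between 0.068 for Col14a1 and 0.939 for Col5a2, with a median of 0.352. Exactly equal values in 2 or more arrays, as 9 members had, occurred in 30.2% of all genes.

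Among the modifying genes a difference in the heterologous array was the rule. That array was the highest of the 5 for 12 of 12 of them and for 15 of 44 collagens, against 19.2% of all genes. It exceeded the parental value in 12 of 12 and 18 of 44 (37.1% of all genes), and both co-injection arrays were below it in 12 of 12 and 15 of 44 (27.5% of all genes). Lysyl oxidases oxidize lysines so that chains can cross-link, and Lox had the largest difference of the members from parental ESCs, both after heterologous injection and after co-injection. Lox measured 8.86 in parental ESCs, 9.32 after homologous injection, 11.62 after heterologous injection, and 6.79 and 6.85 after co-injection (6.82 ± 0.04, SD, n = 2). The heterologous value was 6.77-fold the parental value and the parental value was 4.12-fold the co-injection mean, which made Lox the member with the widest range, 4.83. Loxl1, a paralog tied to elastic fibres, measured 8.42, 9.05, 10.65, 8.10 and 8.14 in the same order. Loxl3 measured 8.09, 8.60, 10.50, 7.65 and 7.76. All 3 shared one order: co-injection lowest, then parental ESCs, homologous and heterologous. Loxl4, at 7.65, 7.45, 8.02, 7.65 and 7.63, passed 2-fold in no comparison.

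Of the prolyl 4-hydroxylase alpha subunits, P4ha3 differed most. It measured 8.48 in parental ESCs, 8.66 after homologous injection, 10.74 after heterologous injection, and 7.00 and 7.10 after co-injection. This was 4.80-fold higher than parental ESCs in the heterologous array and 2.69-fold lower in the co-injection mean. P4ha1, the main subunit in most cells, gave 9.28, 9.95, 10.27, 9.17 and 9.31, and P4ha2 gave 7.42, 7.86, 8.14, 7.43 and 7.71. Both were higher in the homologous and heterologous arrays than in parental ESCs, by 0.67 and 0.99 for P4ha1 and by 0.44 and 0.71 for P4ha2. Lysyl hydroxylases differed less. Plod2, which hydroxylates the telopeptides, measured 9.58, 10.25, 10.61, 9.93 and 9.90, and so was above parental ESCs on all 4 other arrays. Plod1 ranged from 9.77 to 10.19, and Plod3, which also adds sugars to hydroxylysine, was 10.77 in the heterologous array and 9.93 to 10.12 elsewhere.

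Serpinh1 measured 8.77 in parental ESCs, 9.21 after homologous injection, 9.94 after heterologous injection, and 9.22 and 9.28 after co-injection. Here the parental array was the lowest, and the heterologous value was 2.25-fold above it. Pcolce, the procollagen C-proteinase enhancer, stayed within 0.57 on the 5 arrays (11.39 to 11.96). In all, 8 members were above parental ESCs on all 4 arrays of ESC-like cells, Serpinh1, Plod1, Plod2, P4ha2, Col3a1, Col5a2, Col4a6 and Col7a1, which is 14.3% of members against 21.9% of all genes.

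**Figure D3:**
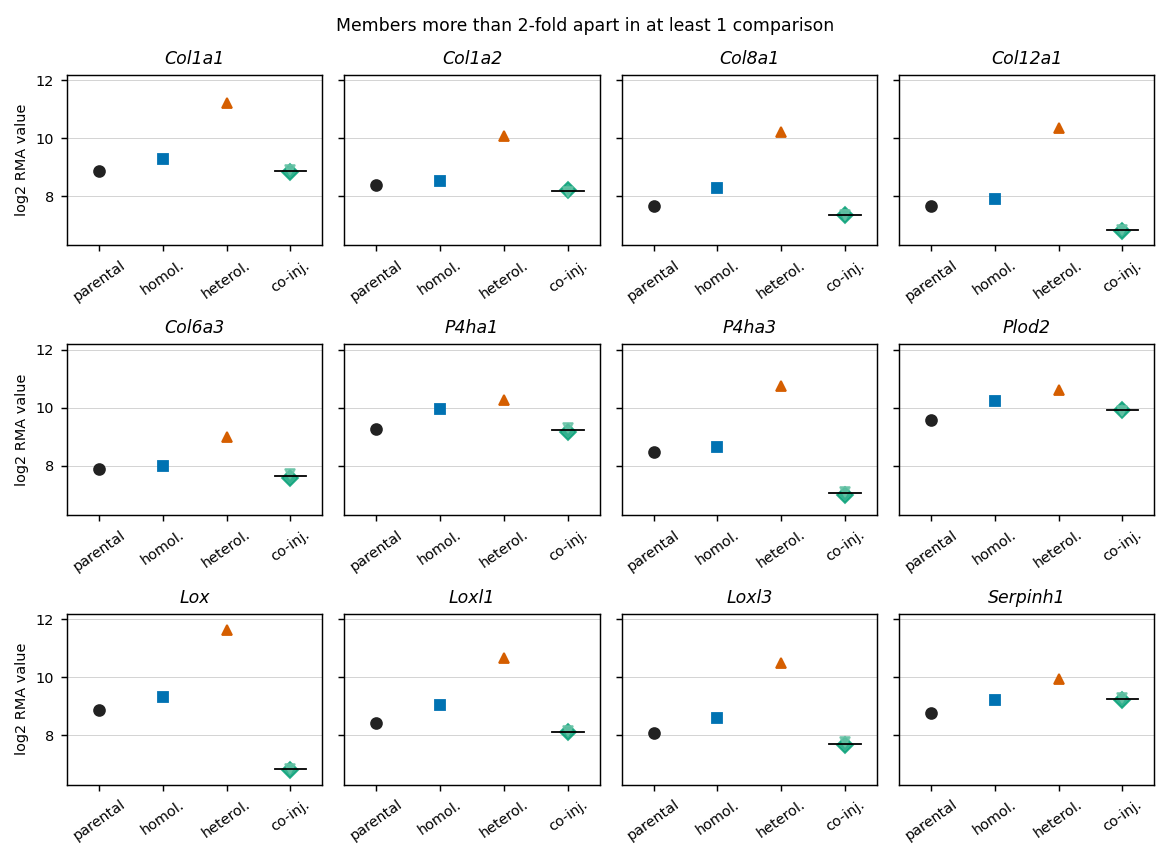
Log2 expression value (vertical axis) of the 12 members that differed more than 2-fold in at least 1 comparison, in parental ESCs, homologous, heterologous and co-injection arrays, with both co-injection arrays as points and their mean as a bar. The heterologous point is the highest in all 12 panels, and for Lox the co-injection points are near 6.8 and the heterologous point is at 11.62.

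Homologous injection gave 0 members higher and 0 lower than parental ESCs by more than 2-fold, against 1.45% and 1.6% of all genes. Differences in this array were smaller but leaned upwards for the modifying genes: 9 of 12 were above the parental value (40.4% of all genes) and their median was 0.44, beside -0.05 for collagens and -0.01 for all genes. The largest were P4ha1 (0.67), Plod2 (0.66), Loxl1 (0.63) and Col8a1 (0.60), which were also the 4 members past 1.5-fold, a level that 4.93% of all genes passed upwards. Col9a2 was the lowest, at -0.39.

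After co-injection, 0 members were higher than parental ESCs (0.647% of all genes) and 2 were lower, Lox and P4ha3 (1.44% of all genes). Their means differed from parental ESCs by -2.04 and -1.43, and both arrays of the pair were past 2-fold. Col12a1 came next, at -0.84. The median over the modifying genes was -0.08, with 6 of 12 below parental ESCs in both co-injection arrays and 4 above in both. Over the collagens it was 0.08, with 5 of 44 below in both and 26 above in both. Among all genes 32.7% were below in both and 45.9% above in both.

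Between the teratoma-derived arrays, every member past 2-fold was one of the 12 with values above. The comparisons share arrays, also with those against parental ESCs, and are given side by side, not as separate evidence. Against the homologous array, 8 members were higher in the heterologous one (2.41% of all genes) and 0 lower (0.647%): Col12a1 by 2.45, Lox by 2.30, P4ha3 by 2.08, Col8a1 by 1.95, Col1a1 by 1.94, Loxl3 by 1.90, Loxl1 by 1.60 and Col1a2 by 1.54. Col6a3 missed the threshold, at 1.997-fold.

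Both co-injection and heterologous injection used B6D2F1 recipients. They differed by the added MFF and by the number of ESCs, since the methods give the same total of cells for both. Relative to the heterologous array, 10 members were lower after co-injection (2.99% of all genes) and 0 higher (0.361%). The heterologous value of Lox was 27.9-fold the co-injection mean, that of P4ha3 12.9-fold, that of Col12a1 11.7-fold and that of Col8a1 7.22-fold. Loxl3 (6.92-fold), Loxl1 (5.80-fold), Col1a1 (5.04-fold), Col1a2 (3.76-fold), Col6a3 (2.52-fold) and P4ha1 (2.03-fold) were the rest. P4ha1 passed only with co-injection batch 1, at -1.09, since against batch 2 its difference was -0.95. Between co-injection and the homologous array 3 members were lower (0.351% of all genes) and 0 were higher (0.0752%), with differences of -2.50 for Lox, -1.61 for P4ha3 and -1.10 for Col12a1.

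One order recurred. In 8 members, Col1a2, Col8a1, Col12a1, Col6a3, P4ha3, Lox, Loxl1 and Loxl3, both co-injection arrays lay below parental ESCs, parental ESCs below the homologous array and the homologous below the heterologous array. That is 14.3% of the members, and 1.78% of all genes had the order. The order was not planned and was taken from these same values, so its share is a description and not support. The same 8 were more than 2-fold above parental ESCs in the heterologous array and below them in both co-injection arrays, as 0.973% of all genes were. This uses the same arrays and is not separate evidence. Col1a1 missed it because 1 co-injection array was 0.03 above parental ESCs.

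A threshold of 1.5-fold brought in more members. Against parental ESCs, 17 were then higher after heterologous injection (7.88% of all genes) and 3 were lower after co-injection (4.13%), the third being Col12a1. Against the homologous array, 12 were higher after heterologous injection (5.59%) and 7 lower after co-injection (1.16%). Against the heterologous array, 16 were lower after co-injection (6.02%). The limma fit over the 5 arrays called 0 members and 0 genes in any comparison at a Benjamini-Hochberg adjusted p under 0.05. At an unadjusted p under 0.05 it gave 21 members higher and 7 lower after heterologous injection than in parental ESCs (15.8% and 18.5% of all genes), and 23 higher and 1 lower than in the homologous array (13.8% and 13.7%). For co-injection it gave 22 lower and 12 higher than the heterologous array (14.1% and 18.6%), 8 lower and 9 higher than parental ESCs (14.6% and 14.2%), and 10 lower and 14 higher than the homologous array (7.83% and 9.88%). For homologous injection it gave 10 higher and 7 lower than parental ESCs (13.6% and 15.9%).

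Other genes of collagen production were examined from a list of 23 that are not members, of which 21 were measured and Fkbp10 and Adamts2 were not analysed here. Against parental ESCs, 6 were higher and 1 was lower in the heterologous array (3.98% and 1.95% of all genes). Bmp1, the protease that removes the C-propeptide, measured 9.06 in parental ESCs, 9.69 after homologous injection, 11.42 after heterologous injection, and 9.41 and 9.38 after co-injection, a heterologous difference of 2.36. The others higher were P3h2 (1.95) and P3h3 of the prolyl 3-hydroxylases, Creb3l1 (1.61), a transcription factor for collagen secretion genes, Tll1, a relative of Bmp1, and the prolyl isomerase Fkbp14. Pcolce2 was lower, by -1.10, and it was also lower after homologous (-1.45) and co-injection (-1.22). General folding genes did not differ by 2-fold: P4hb ranged from 11.46 to 11.74 and Ppib from 12.17 to 12.33. Of 9 collagen receptors, 4 were higher in the heterologous array, Itga11 by 2.67, Ddr2 by 2.01, Mrc2 by 1.64 and Itgb1 by 1.33, and 0 were lower.

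P4ha1, P4ha2 and Plod2 are known hypoxia-responsive genes, so 10 other hypoxia-response genes were set beside them. Those past 2-fold upwards were highest after homologous injection: Egln3 was 1.71, Pdk1 1.62 and Bnip3 1.41 above parental ESCs in the homologous array, where 3 of 10 passed 2-fold. In the heterologous array 0 of 10 were higher and Ndrg1 was lower, by -1.38. After co-injection 1 of 10 was higher, Pdk1 (1.23), where P4ha1 differed by -0.04 and Plod2 by 0.33. The list median was 0.45 in the homologous and 0.10 in the heterologous array. The part of hypoxia in the hydroxylase differences was not tested.

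Fibroblast markers were set beside the members. Of 19 measured, 15 exceeded their parental value more than 2-fold after heterologous injection (3.98% of all genes) and 0 fell below it by as much (1.95%). Their median difference was 2.15, beside 0.06 over the 56 members, of which 44 passed 2-fold in no comparison. The largest were Postn (3.30), Thbs2 (3.29) and Pdgfrb (3.10). The mean level of the markers was 7.79 in parental ESCs, 8.37 after homologous injection, 9.80 after heterologous injection, and 7.57 and 7.55 after co-injection. Of the 19 markers, 9 had the order of the 8 members above (1.78% of all genes). That order was taken from these same values, and the list was chosen with earlier results known, so this is a description and not support. After homologous injection 3 of the 19 were more than 2-fold above parental ESCs, Mmp2 (1.91), Pdgfrb (1.31) and Fbln2 (1.03), where 0 members were. After co-injection 1 of the 19 was higher than parental ESCs, Mmp2 (1.25), and 3 were lower, Thy1 (-1.12), Prrx1 (-1.07) and Fbln2 (-1.13). Lum, a fibroblast proteoglycan, was between 4.32 and 4.81 on all 5 arrays, a heterologous difference of 0.49. The part of feeder cells, injected fibroblasts or host cells in the collagen differences was not tested.

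Other cell type lists were read in the same way, beside 3.98% of all genes higher and 1.95% lower in the heterologous array. Contractile cell markers were higher in the heterologous array for 6 of 8 genes (mean level 8.60 in parental ESCs, 9.03 homologous, 10.06 heterologous, 8.57 and 8.53 co-injection). Parietal endoderm markers were higher for 5 of 12, Dab2 (3.09) the most, and lower for 2, Sox7 and Lama1. Cartilage and bone markers gave 0 of 8 in either direction and endothelial markers 0 of 6 higher and 1 lower, Pecam1 (-1.44). Macrophage markers gave 1 of 6 higher, Lyz2 (1.16). Of 12 pluripotency markers 5 were lower in the heterologous array, Tbx3 (-2.32), Zfp42 (-1.63), Klf4 (-1.43), Esrrb (-1.18) and Fgf4 (-1.11), and 0 were higher. After homologous injection 2 of the 12 were lower than in parental ESCs, and after co-injection 1. The list median was below zero in each condition, at -0.46 homologous, -0.66 heterologous and -0.40 co-injection. Tbx3 was lower still after homologous injection (-3.04), and Pou5f1 (Oct4) stayed between 12.29 and 12.60 on all arrays.

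**Figure D4:**
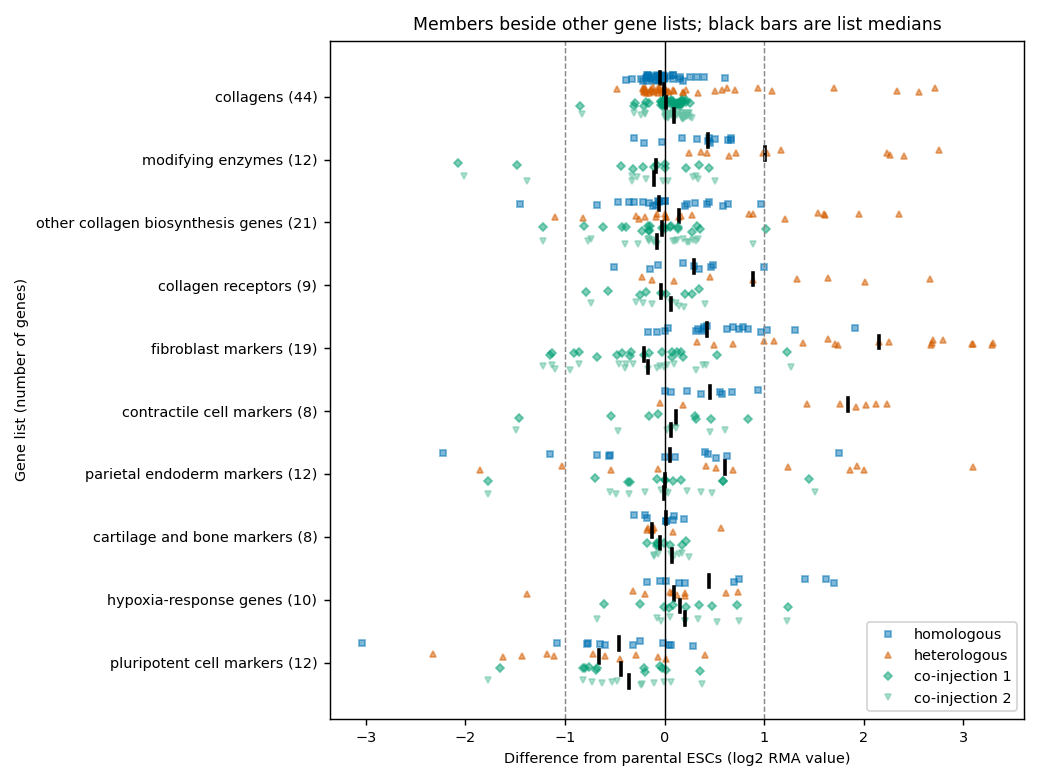
Difference from parental ESCs (horizontal axis, log2) of every gene in 10 lists, on the 4 arrays of ESC-like cells (points), with black bars at list medians, dashed lines at 2-fold and the number of genes in brackets. The median of the modifying enzymes in the heterologous array is 1.01 and that of the fibroblast markers 2.15, while the collagen median is near zero.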

How the data were processed

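RNA of 5 cell samples was hybridized to Affymetrix Mouse Gene ST arrays. Per the submitters' notes GCOS and RMA were used, and the authors deposited log2 values, quantile-normalized by RMA, for 35556 probe sets per array. Tool versions: not given in the sources used here. Array medians lay between 7.48 and 7.54, and no further normalization was applied.

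Gene names came from GEO's platform annotation, in which 21789 probe sets had 1 symbol, 1621 had several and 12146 had none. Only the first kind was used, with the probe set of the highest mean standing for a gene (3 members had more than 1). Of the members, 44 had a mean value above the median of all values, 7.49. Samples were grouped by their labels. Differences between conditions were counted when over 2-fold, the rule of the methods, in 6 comparisons, with no test. The members and all lists were chosen with earlier results of these data known. Values in all 5 arrays were printed for members past 2-fold, for chains and neighbours and for hydroxylases and helpers, other members by range and count. Genes outside the members were named where past 2-fold, at most the 3 highest and 3 lowest per list and comparison, and Bmp1; P4hb, Ppib, Lum, Pou5f1, Itgb1, Esrrb, Fgf4, P3h3, Tll1 and Fkbp14 were named after their values were seen.

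Alternatives were a 1.5-fold threshold, leaving out dim probe sets, the mean over probe sets of a gene, updated symbols, cyclic loess, leaving out each co-injection array, and limma 3.58.1 (eBayes, Benjamini-Hochberg) over all 5 arrays, which has 1 residual and 0.797 prior degrees of freedom. Both rules for calls were tested on simulated data. Background correction and slide were not varied, since scanner files were not used here. Promoters came from a RefSeq table (GRCm38.p6). Python 3.11.15, numpy 2.4.6, pandas 2.3.3, matplotlib 3.10.9 and R 4.3.3 were used.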

Additional observations from a re-analysis of the deposited data

Results flagged for a closer look

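In 8 members the heterologous array lay above parental ESCs and both co-injection arrays below. The differences from parental ESCs after heterologous injection and after co-injection were 2.76 and -2.04 for Lox, 2.71 and -0.84 for Col12a1, 2.55 and -0.30 for Col8a1, 2.41 and -0.38 for Loxl3, and 2.26 and -1.43 for P4ha3. For Loxl1 they were 2.24 and -0.30, for Col1a2 1.70 and -0.21, and for Col6a3 1.08 and -0.25. After homologous injection Lox (0.46) and P4ha3 (0.18) were also above parental ESCs, while in the co-injection arrays both were more than 2-fold below. For co-injection against heterologous injection, limma over the 5 arrays gave these 8 members adjusted p-values of 0.0953 to 0.0982, so none passed 0.05, with a spread taken from the co-injection pair alone. Against homologous injection, the limma adjusted p was 0.271 for both Lox and P4ha3.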

How the results depend on the processing

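With a 1.5-fold threshold, 4 members were higher after homologous injection than in parental ESCs (0 at 2-fold) and 17 were higher after heterologous injection (11 at 2-fold). At that threshold 16 were lower after co-injection than after heterologous injection (10 at 2-fold) and 7 lower than after homologous injection (3 at 2-fold). limma at a Benjamini-Hochberg adjusted p under 0.05 called 0 members and 0 genes in every comparison. This applies to the 11 members higher in the heterologous array than in parental ESCs, the 8 higher than in the homologous array, the 10 and 3 lower after co-injection than in the heterologous and homologous arrays and the 2 lower than in parental ESCs, where the fold rule counts them. The spread in that fit comes from the co-injection pair alone, so it does not measure variation within any other condition. Cyclic loess gave 12 in place of 11 and 9 in place of 8, left the other counts as they were and moved no named member value by more than 0.0867. It changed the median over members of co-injection against the heterologous array from 0.01 to -0.10. Leaving out dim probe sets, averaging probe sets and updating symbols gave the same counts. Without either co-injection array, the count lower than the heterologous array ran from 9 to 10, that lower than parental ESCs stayed 2 and that lower than the homologous array stayed 3. Of 98 values of named members under these alternatives, 0 were reversed. No paired analysis was possible because only co-injection has more than 1 array. Arrays have no read depth, and differences of dim probe sets are limited by their signal over background.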
